A study of Zea mays with 6 samples.

Results

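The MYB, WRKY and NAC transcription factors measured in maize roots were represented by 29 probe sets of 12255 in the authors' table of their SAM comparison (significance analysis of microarrays). A probe set is a group of short array probes against 1 transcript. Members were taken where the gene title or the target description holds MYB or WRKY, also as part of a longer name such as R2R3MYB. NAC domain, NAM and no apical meristem had to stand as words of their own, and 12 matches inside other words, such as nicotianamine, were left out. The rule also takes the gene symbols c1, pl1 and p1, but 0 rows of that table carry them, so these regulators are described beside the members. By family, 23 members belong to MYB, 5 to WRKY and 1 to NAC.

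The intercropped group held 3 root samples of maize (Zea mays, cultivar Nongda108) grown together with peanut (cultivar Luhua14), and the monocropped group 3 root samples of the same cultivar grown alone. Both groups stood in a greenhouse on calcareous sandy soil with basal fertilizer and were sampled at the reproductive stage. Each sample was hybridised to 1 Affymetrix maize array, read as a scaled linear signal. The labels also name a peanut monoculture, not analysed here. Whether the 3 samples of a group are separate plants is not stated, so p-values here reflect only how much these samples spread.

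MYB proteins bind DNA through MYB repeats, and in plants the R2R3 class, with a pair of such repeats, controls phenylpropanoid, anthocyanin and lignin synthesis as well as cell fate and stress responses. WRKY proteins bind W-box elements in promoters and are best known from defence signalling. NAC proteins, named after NAM, ATAF and CUC, act in meristem formation, secondary wall building and stress.

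The set is mixed. Of the MYB members, 13 are R2R3 proteins, and 5 are single MYB histones (Smh), which carry 1 MYB domain and a part like histone H1 and are known in maize as proteins that bind telomere repeats. The other 5 MYB members are named MYB, MYB-like or only by similarity. Across all members 11 are described by similarity to another protein, graded weak for 9 and moderate for 2. A gene symbol is given for 19, among them myb8 and myb42, which are also among these 11. In the Gene Ontology annotation 20 have a molecular function, and for 19 of these it includes DNA binding. The members come from 28 transcript clusters. The suffixes x_at (4 members) and s_at (2 members) mark probes that can also bind related transcripts.

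The 6 arrays had median signals between 134 and 142, and between 25.6% and 28.0% of probe sets lay below 50. A hybridisation spike control (BioB-5) read 224, 412 and 134 on the intercropped arrays, against 1022, 206 and 201 on the monocropped arrays, so monocropped replicate 1 stood high. Summed over 7 root marker probe sets, the signal was 1233 to 1976 on intercropped arrays and 1369 to 2348 on monocropped arrays, with none of the 7 at 0. The sum over 23 green tissue markers was 3727 to 4756 on intercropped arrays and 3793 to 4379 on monocropped arrays, again with none at 0. The sum over 32 markers of dividing cells was 17832 to 24483 on intercropped arrays and 19844 to 24306 on monocropped arrays, none at 0. Probe set by probe set, the mean was lower in intercropped roots for 5 of the 7 root markers (median log2 difference -0.27, intercropped minus monocropped), for 12 of the 23 green tissue markers (median -0.0024) and for 24 of the 32 markers of dividing cells (median -0.16). Several markers of dividing cells share a transcript cluster, as do several root markers, so these counts and sums are not of independent genes. The part of cell composition in the results was not tested. In whole roots, fewer cells of a type and less RNA per cell cannot be told apart.

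Probe sets with a signal of 50 or more on 3 or more arrays were tested, and all 29 members passed. The authors appear to have applied a filter of this kind to their table, though its full criterion is not stated. The members were drawn from that table, so their passing says little. Of 13116 probe sets tested with limma, 0 (0.0%) reached an adjusted p under 0.05, and so 0 members did. The lowest adjusted p of a member was 0.374, against 0.129 over all probe sets. The authors' deposited table has a q-value under 5% in 5 rows (0.0408%), and its members' q-values ran from 34.1% to 78.9%. No member passed the test in either table.

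In intercropped roots 20 of the 29 members had the lower mean log2 signal, and 9 the higher. Over all probe sets tested 48.1% were lower and 51.9% higher. The median log2 difference (intercropped minus monocropped, here and throughout) of the members was -0.20, and that of all probe sets was 0.011, with quartiles at -0.15 and 0.17. In 7 members (24.1%) every intercropped signal lay below every monocropped signal, a pattern seen in 8.69% of all probe sets. The opposite pattern occurred in 0 members and in 8.29% of all probe sets. An unadjusted p under 0.05 was met by 5 members, all lower, against 5.51% of all probe sets lower and 5.6% higher. Related members share probes or transcripts, so these counts are not of independent genes. An array below 50 was found in 4 members, all with the lower mean in intercropped roots. Of these, ZmMYBHX22, ZmMYBIM65 (probe set a) and the probe set similar to a WRKY-like protein reached 50 on only 3 arrays, most of them monocropped.

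**Figure D1:**
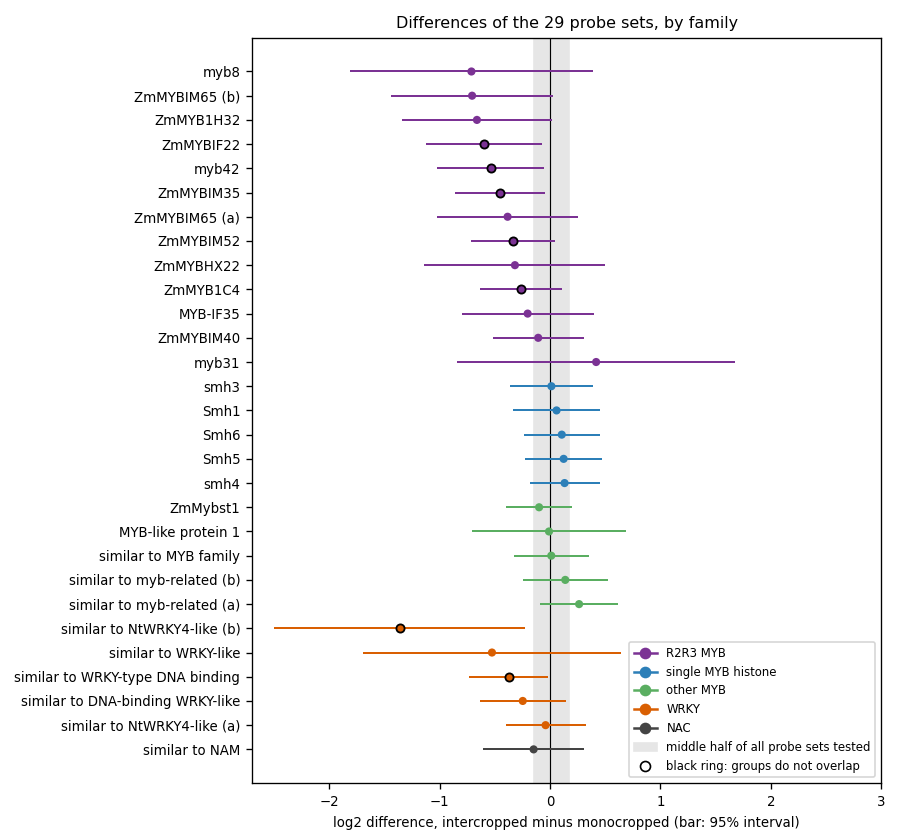
Log2 difference (intercropped minus monocropped) of each of the 29 probe sets with its 95% interval from limma, coloured by family, black rings marking members whose groups do not overlap and the grey band the quartile range of all 13116 probe sets tested. All 7 ringed members lie left of 0, 5 of them R2R3 MYB and 2 WRKY, and the points of the single MYB histones lie within the band.

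Of the 13 R2R3 MYB probe sets 12 had the lower mean in intercropped roots, and the median log2 difference was -0.38. In 5 of the 13 the groups did not overlap, all lower, against 8.69% of all probe sets, and 3 of these 5 are x_at probe sets. The median was -0.60 for the 7 members left by a filter at a mean signal of 100, and -0.24 on the scale of log2 of the signal plus 32. None passed the adjusted test.

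ZmMYBIF22, an R2R3 protein named from its clone, read 111, 138 and 143 in intercropped roots, against 244, 213 and 145 in monocropped roots. The groups did not overlap, but intercropped replicate 3 and monocropped replicate 3 were almost level. Its log2 difference was -0.60 ± 0.22 (SE, n = 3 each), with an adjusted p of 0.390. ZmMYBIM35 read 350, 428 and 427 in intercropped roots, against 673, 498 and 490.5 in monocropped roots. All intercropped arrays were lower, and the log2 difference was -0.45 ± 0.17 (adjusted p = 0.394).

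MYB42, in maize a repressor of lignin synthesis genes, had a signal of 79.6, 52.0 and 54.4 in intercropped roots, against 87.8, 95.7 and 81.8 in monocropped roots. Intercropped replicate 1 came close to the monocropped range without entering it. The log2 difference was -0.54 ± 0.20, with an adjusted p of 0.400. MYB31, a second repressor of lignin genes in maize, read 70.5, 193 and 253 in intercropped roots, against 64.4, 131 and 171 in monocropped roots. The groups overlapped widely, each with 1 low array, replicate 1. MYB31 was the only R2R3 member with a higher mean, and is named here after its values were seen. Its log2 difference of 0.42 ± 0.53 had an adjusted p of 0.824. No test of the difference between MYB31 and MYB42 was made.

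ZmMYBIM52 read 66.8, 70.5 and 81.8 in intercropped roots, against 102, 90.6 and 83.3 in monocropped roots. The highest intercropped array lay just under the lowest monocropped one, and the log2 difference was -0.33 ± 0.16 (adjusted p = 0.505). ZmMYB1C4 read 48.7, 54.0 and 51.0 in intercropped roots, against 58.9, 57.5 and 68.3 in monocropped roots, near the limit of 50. Its groups did not overlap either, at a log2 difference of -0.26 ± 0.16 (adjusted p = 0.593).

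MYB8 was measured by a probe set of its own, at 189, 241 and 569 in intercropped roots, against 290, 654 and 603 in monocropped roots. Each group held both low and high arrays, and they overlapped. The log2 difference of -0.71 ± 0.46 (adjusted p = 0.626) was -1.18 without intercropped replicate 3 and -0.39 without intercropped replicate 1. The probe set of ZmMYB1H32, which is annotated to MYB8 too, read 66.4, 107 and 148 in intercropped roots, against 143, 175 and 167 in monocropped roots. Only intercropped replicate 3 reached the monocropped range, and the log2 difference was -0.66 ± 0.29 (adjusted p = 0.453).

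ZmMYBIM65 was measured by 2 s_at probe sets of 1 transcript cluster, with log2 differences of -0.38 ± 0.27 (adjusted p = 0.648) for a and -0.71 ± 0.31 (adjusted p = 0.462) for b. In both of them the groups overlapped. The remaining R2R3 members were ZmMYBHX22 at -0.32 ± 0.35, MYB-IF35 at -0.20 ± 0.25 and ZmMYBIM40 at -0.11 ± 0.17 on the log2 scale. MYB-IF35, which drives the making of phenolic compounds in cultured maize cells, read 94.1, 110.1 and 130 in intercropped roots, against 160, 145 and 88.6 in monocropped roots. Its lowest array was thus a monocropped one. ZmMYB1H32, ZmMYBIM65 and these remaining members were picked for the text after their values were seen.

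**Figure D2:**
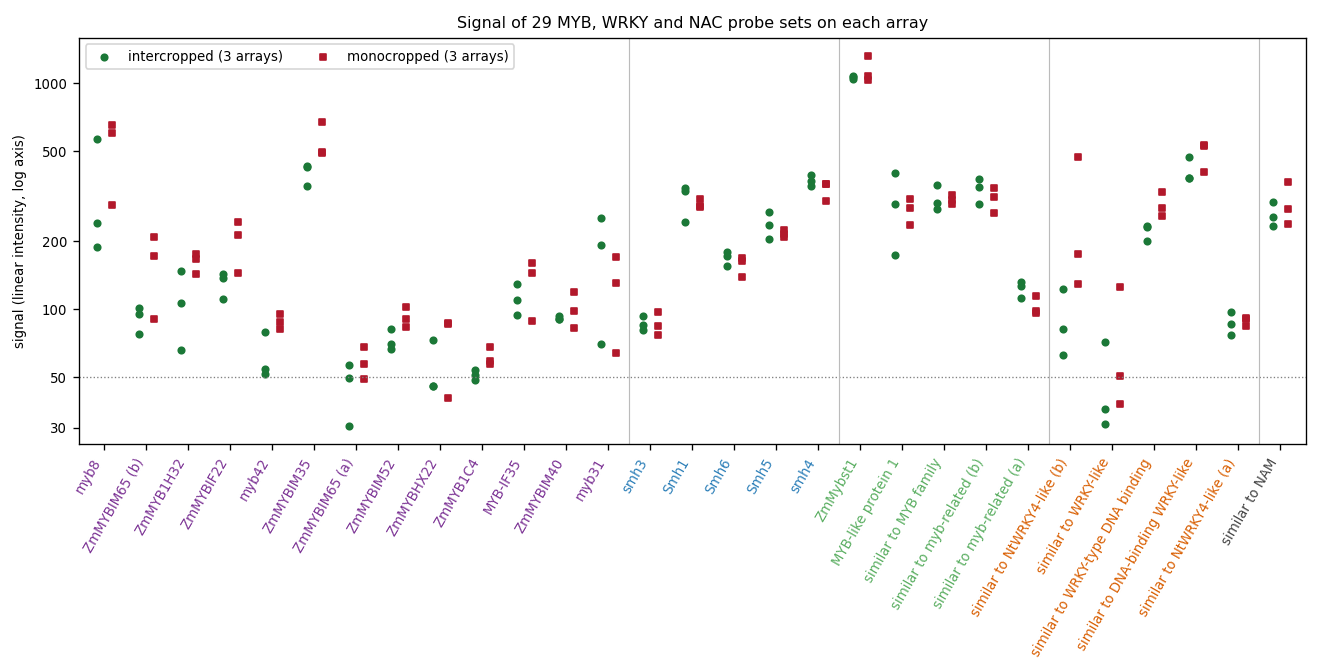
Signal on each of the 6 arrays (log axis, linear scaled units) for the 29 probe sets, with green circles for the intercropped arrays left of red squares for the monocropped arrays, names coloured by family and a dotted line at 50, the limit of the filter. The groups do not overlap in ZmMYBIM35, myb42 and, by a narrow gap, ZmMYBIF22, and they overlap in myb8 and in all 5 Smh probe sets.

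The 5 single MYB histones stood near 0, with higher means in intercropped roots in 5 of 5 and log2 differences between 0.012 and 0.13. Their median of 0.11 lay inside the quartiles of all probe sets, and their lowest adjusted p was 0.764. The median was 0.025 without intercropped replicate 2 and 0.042 without monocropped replicate 1. The groups overlapped in all 5. Smh4, which had the greatest difference among them, read 353, 371 and 391 in intercropped roots, against 302, 357 and 360 in monocropped roots, and the Smh genes named here were picked after their values were seen. Smh1 differed by 0.058 on the log2 scale and Smh3 by 0.012, which lay within their standard errors of 0.17 and 0.16.

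Among the other 5 MYB members 3 had higher and 2 lower means in intercropped roots. Their median log2 difference was 0.011. ZmMybst1 read 1068, 1074 and 1042 in intercropped roots, against 1317, 1032 and 1081 in monocropped roots. Monocropped replicate 1 alone stood above the rest. The log2 difference was -0.10 ± 0.12 (adjusted p = 0.817), and without that array it was 0.0066. The remaining 4 lay between -0.010 and 0.26.

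All 5 WRKY members had the lower mean in intercropped roots, and their median log2 difference was -0.38. The groups did not overlap in 2 of the 5, both lower, against 8.69% of all probe sets, and none passed the adjusted test. The array annotation names these probe sets only by similarity to Arabidopsis proteins, weak for 4 and moderate for 1, so no gene name is given to them.

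The annotation gives 2 probe sets, a and b, a weak similarity to an Arabidopsis protein called NtWRKY4-like. NtWRKY4-like b had a signal of 81.9, 62.7 and 123 in intercropped roots, against 130.0, 471 and 176 in monocropped roots. Monocropped replicate 2 was far above the other arrays, and intercropped replicate 3 came just below monocropped replicate 1. The log2 difference of -1.36 ± 0.48 was the largest of any member, with an adjusted p of 0.374, and without monocropped replicate 2 it was -0.82. The probe set similar to a putative WRKY-type DNA binding protein read 235, 201 and 232 in intercropped roots, against 259, 329 and 281 in monocropped roots. The groups did not overlap, at a standard deviation of 18.6 in intercropped and 35.7 in monocropped roots. The log2 difference was -0.38 ± 0.15 (adjusted p = 0.415).

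The probe set similar to a DNA-binding WRKY-like protein read 382, 380 and 469.5 in intercropped roots, against 405, 531 and 530 in monocropped roots. Intercropped replicate 3 overlapped the monocropped range, and the log2 difference was -0.25 ± 0.16 (adjusted p = 0.629), or -0.38 without monocropped replicate 1. The other 2 WRKY members differed by -0.53 ± 0.49 (similar to a WRKY-like protein) and by -0.041 ± 0.15 (NtWRKY4-like a) on the log2 scale, with adjusted p of 0.749 and 0.945, and their groups overlapped.

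The 1 NAC member has a weak similarity to an Arabidopsis NAM protein, a class needed for the shoot meristem in petunia. It read 297, 233 and 255 in intercropped roots, against 366, 277 and 238 in monocropped roots. The ranges overlapped, with a log2 difference of -0.15 ± 0.19 (adjusted p = 0.825) that was 0.021 without monocropped replicate 1.

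The wording of the rule left out 3 probe sets whose titles name a NAC protein without the word domain. They were found after the tables were opened and are not counted among the 29. The probe set similar to GRAB1, a wheat NAC protein that binds a geminivirus protein, read 269, 254 and 305 in intercropped roots, against 415, 697 and 498 in monocropped roots. Every intercropped array was below every monocropped one. The log2 difference was -0.93 ± 0.20, with an adjusted p of 0.219. A NAC1 transcription factor differed by -0.14 ± 0.18 and a NAC1-like protein by 0.10 ± 0.23 on the log2 scale, and in both the groups overlapped.

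The array carries 8 probe sets of c1, pl1 and p1, the classical maize regulators of flavonoid pigments. The genes c1 and pl1 switch on anthocyanin synthesis, and p1 the phlobaphenes and related flavonoids. Of the 8 probe sets, 4 passed the filter used here, all 4 had lower means in intercropped roots, and their median log2 difference was -0.33. For p1 (a) and p1 (b) every monocropped array reached 50, but of the intercropped arrays only replicate 3 did. These p1 probe sets thus passed the filter through the monocropped arrays, which favours a lower intercropped mean among the probe sets tested. The 4 that were not tested read between 1.51 and 32.1 on every array, and they did not all go the same way. The mean was higher in intercropped roots for c1 (b), at 5.34 against 3.51, and for p1 (e), at 4.52 against 3.17. It was lower for p1 (c), at 18.5 against 19.2, and for p1 (d), at 24.8 against 29.1. The groups did not overlap in p1 (d). All these signals lay under the filter limit of 50.

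The tested c1 probe set, c1 (a), read 77.1, 82.1 and 94.0 in intercropped roots, against 143, 110.2 and 107 in monocropped roots. The groups did not overlap, and monocropped replicate 1 was highest. The log2 difference was -0.50 ± 0.17 (adjusted p = 0.363). All 4 tested probe sets of c1, pl1 and p1 meet the filter on signal but are not in the authors' table, and the sources used here do not say why.

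The pl1 probe set read 68.6, 90.8 and 86.4 in intercropped roots, against 90.8, 115 and 98.1 in monocropped roots. Intercropped replicate 2 was level with the lowest monocropped array, and the log2 difference was -0.31 ± 0.18 (adjusted p = 0.576). The p1 probe set p1 (a) read 41.1, 40.5 and 52.8 in intercropped roots, against 57.5, 54.2 and 58.2 in monocropped roots. Its groups did not overlap, although the signals were near 50, and the log2 difference was -0.35 ± 0.17 (adjusted p = 0.517). A further p1 probe set, p1 (b), differed by -0.21 ± 0.19 (adjusted p = 0.734) and its groups overlapped. It was -0.37 without intercropped replicate 3 and -0.10 without intercropped replicate 1. Without intercropped replicate 1 the pl1 difference was -0.19, and p1 (a) differed by -0.21 on the scale of log2 of the signal plus 32.

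The lower means of the members were not spread evenly over the intercropped arrays. Of the 29 members, 13 (44.8%) had their lowest signal on intercropped replicate 1, which held the lowest signal for 20.5% of all probe sets, and 0 had their highest signal there, against 17.1% of all probe sets. Monocropped replicate 2 held the highest signal for 10 members (34.5%), against 14.1% of all probe sets. The log2 signals of the R2R3 members, each centred on its mean over the arrays, had medians of -0.42, -0.21 and -0.024 on the intercropped arrays, against 0.072, 0.38 and 0.29 on the monocropped arrays. Those of the WRKY members were -0.22, -0.33 and -0.023 on the intercropped arrays, against -0.084, 0.38 and 0.15 on the monocropped arrays. Intercropped replicate 3 lay closest to the monocropped arrays among the R2R3 members. Among the WRKY members it lay above monocropped replicate 1, so the medians of the groups overlapped. The medians of all probe sets stayed between -0.013 and 0.016. Without intercropped replicate 1 the median log2 difference of the R2R3 members was -0.27, and without monocropped replicate 2 that of the WRKY members was -0.18.

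**Figure D3:**
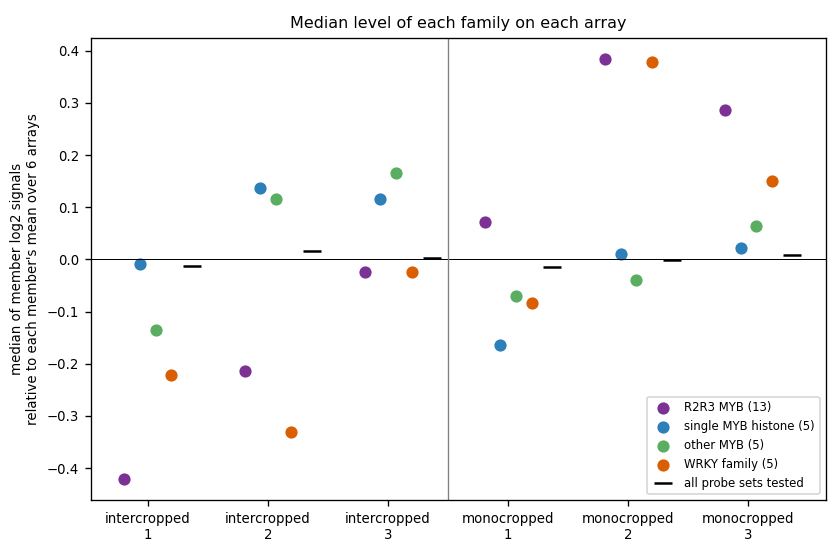
Median centred log2 signal on each array, intercropped arrays left of monocropped arrays, with a coloured point for each family or subgroup (number of probe sets in brackets) and a black dash for all probe sets tested. The R2R3 points lie between -0.42 on intercropped replicate 1 and 0.38 on monocropped replicate 2, while the dashes stay near 0.

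Genes in the pathways that MYB, WRKY and NAC proteins are known to act on were counted in the same way, and the named ones were picked after their values were seen. Of 9 flavonoid and anthocyanin enzyme probe sets 8 were lower and 1 higher. Their median log2 difference was -0.14, and 3 (33.3%) had groups that did not overlap, all lower. Over all probe sets 48.1% were lower, and 8.69% were lower with groups that did not overlap. The flavanone 3-hydroxylase fht1, an early enzyme of the anthocyanin branch, read 36.2, 36.4 and 43.0 in intercropped roots, against 52.0, 95.1 and 99.2 in monocropped roots. Every intercropped array was lower, with a log2 difference of -1.04 ± 0.27 and an adjusted p of 0.274. All its intercropped signals lay under the filter limit, so fht1 passed the filter only through the monocropped arrays. The lowest of these, replicate 1, was itself close to that limit.

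Of 19 pathogenesis-related probe sets, a class of defence proteins, 11 were lower and 8 higher, and the median log2 difference was -0.16. In 6 of them (31.6%) the groups did not overlap, all lower, against 8.69% of all probe sets. PR-1 read 111, 193 and 400.3 in intercropped roots, against 543, 717 and 524 in monocropped roots. Every intercropped array lay below the monocropped arrays, with intercropped replicate 1 lowest. The log2 difference was -1.52 ± 0.42 (adjusted p = 0.287).

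Of 18 secondary wall and lignin probe sets 12 were higher and 6 lower in intercropped roots, and the median log2 difference was 0.22. Their centred log2 signals had medians of -0.095, 0.13 and 0.27 on the intercropped arrays, against 0.14, -0.40 and -0.080 on the monocropped arrays. These medians overlapped, and monocropped replicate 2 was lowest. Some of the probe sets share a gene symbol, such as Bk2L3, so the counts are not of independent genes. The groups did not overlap in 3 that were higher, against 8.29% of all probe sets, and in 1 (5.56%) that was lower, against 8.69% of all probe sets. The laccase LAC1, of a class of enzymes that polymerise lignin precursors, read 345, 841 and 804 in intercropped roots, against 289, 309 and 249 in monocropped roots. All intercropped arrays were higher, replicate 1 by little, at a log2 difference of 1.13 ± 0.34 (adjusted p = 0.309). The cellulose synthase cesa11 differed by 0.79 ± 0.23 (adjusted p = 0.298), its groups apart as well, and the cinnamyl alcohol dehydrogenase cad by 0.046 ± 0.089. None of the probe sets of these 3 lists passed the adjusted test, and no link between the regulators and the lists was tested.

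**Figure D4:**
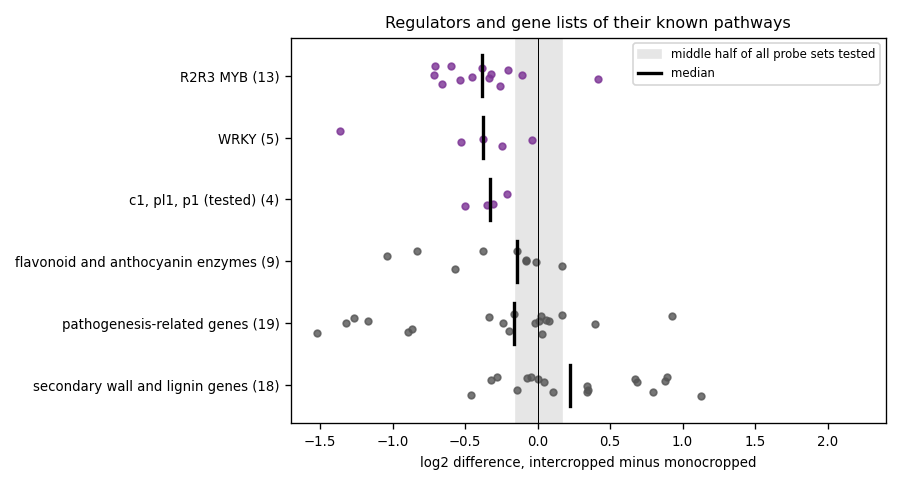
Log2 difference (intercropped minus monocropped) of each probe set in the R2R3 MYB, WRKY and pigment regulator groups and in 3 lists of pathway genes, with a black line at each median, the number of probe sets in brackets and the grey band at the quartiles of all probe sets tested. The medians are -0.38, -0.38 and -0.33 for the regulators, -0.14 and -0.16 for flavonoid and pathogenesis-related genes, and 0.22 for secondary wall and lignin genes.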

How the data were processed

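Biotin-labelled cRNA from root RNA was hybridised to 6 single-colour arrays, 3 per group. The authors deposited a linear signal intensity per probe set, already summarised and scaled; the submitters' processing notes name GCOS 1.4, and the scaling target is not given in the sources used here. Per the file headers, the authors' filtered table holds log2 values, and the authors' SAM table a score, a log2 difference, a fold change (a linear ratio, intercropped on top) and q-values in percent from 100 permutations. Its 6 per-sample columns were not used.

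From the deposited intensities 179 control probe sets of 17734 were left out and values under 1 were set to 1. Probe sets with at least 50 on at least 3 arrays were tested on the log2 scale with limma 3.58.1 in R 4.3.3 (trend=TRUE, two-sided), Benjamini-Hochberg adjusted over all 13116. Errors of log2 differences are limma's standard errors. The code was tested on simulated data. Depth has no meaning for arrays, and their number limits the precision.

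The members and lists were chosen with earlier results of these data known. Named were all c1, pl1 and p1 probe sets and, per family, members whose groups do not overlap, the 3 with the smallest p and the 3 with the highest mean. Symbols of c1, pl1 and p1 came from the platform annotation and a gene table of assembly Zm-B73-REFERENCE-NAM-5.0. Alternatives were other normalizations, filters, memberships, a constant of 32 added to the signal, trend=FALSE, a replicate block and leaving out each array.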

Additional observations from a re-analysis of the deposited data

How the results depend on the processing

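The number of members called was 0 under all alternatives run. Over the whole array 1 probe set was called with log2 of the signal plus 32, and 0 to 34 when a replicate was left out, 34 of them without intercropped replicate 1, none a member. The median log2 difference of all members was -0.29 to -0.12 with a replicate left out and -0.26 to -0.12 otherwise. That of the MYB members was -0.26 with symbol or title matches only, -0.26 to -0.10 with a replicate left out, and 0.00048 for the 16 left by a filter at a mean signal of 100. That of the WRKY members was -0.45 to -0.18 with a replicate left out. Lower R2R3 members numbered 6 of 7 and lower WRKY members 3 of 3 with the filter at 100, because fewer were tested. With a replicate left out they numbered 11 to 12 of 13 and 4 to 5 of 5, and higher single MYB histones 3 to 5 of 5, with 3 without intercropped replicate 3. The last count was 4 under quantile normalization and under equal array medians. With a replicate left out, ZmMybst1 ran between -0.17 and 0.0066 and the NAC member between -0.29 and 0.021, both positive without monocropped replicate 1; the cause was not tested. Deviations of same-numbered arrays correlated at 0.27, -0.069 and -0.0041, against -0.30 to 0.33 for arrays of different numbers. Only the first was above 0.1, so the numbers were not taken to pair the samples, and with the replicate as a block 0 probe sets were called. Of the values recomputed, 197 of single probe sets kept their direction and side of the threshold, and 2 reversed direction. Of the counts and medians, 127 stayed close to the reported value and 7 moved. Trend=FALSE, no filter, the authors' probe sets and the replicate block could not shift the log2 differences of the members, so their entries add little to these tallies. The NAC median is that of 1 probe set, which is tallied among the single probe sets too. Without monocropped replicate 1 it was taken as close among the medians and as reversed among the probe sets. A median was taken as close if it shifted by less than its spread between replicates (0.12 for MYB, 0.25 for NAC). A median near 0 could therefore change sign and still be taken as close. The extra counts by subgroup and the 3 further NAC-named probe sets were added after seeing the data. With 3 arrays a group and a median standard error of 0.18 on the log2 scale, small differences were not detectable. Large ones were not called either. Over all probe sets tested the log2 differences ran from -2.92 to 4.23, and the lowest adjusted p from limma was 0.129.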
